A study of Mus musculus with 4 samples.

Results

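A total of 30 genes of cholesterol synthesis, its control, and cholesterol uptake, trafficking and efflux were examined among the 16709 gene symbols that the authors quantified. They were selected by name from pathway knowledge, and all 30 were listed. They comprised 18 enzymes of synthesis and 12 other genes, namely 6 regulators, 4 genes of uptake and trafficking and 2 of efflux. RNA was sequenced from 3T3-L1 cells, an established mouse preadipocyte line, grown in serum-containing medium. The Nutlin-3a group received 25 µM Nutlin-3a, which keeps the ubiquitin ligase MDM2 from binding p53, for 24 h in the vehicle DMSO. The DMSO group received an equal amount of DMSO alone, and each group had 2 biological replicates. FPKM, the fragment count of a transcript scaled to its length and to library size, was deposited as a single value for each group, without the separate libraries. The values therefore carry no replicate error, no test or p-value was possible, the depth behind them is unknown, and higher and lower describe the size of a ratio.

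Cells build cholesterol from acetyl-CoA through mevalonate and squalene, and also take it up in lipoproteins. When sterols run low in the endoplasmic reticulum, the INSIG proteins no longer retain the escort protein SCAP with the precursor of SREBP-2. The mature form of SREBP-2 then switches on the genes of synthesis and uptake. When sterols are abundant, oxysterols bind the LXR receptors, which switch on the efflux genes Abca1 and Apoe. In fat cells cholesterol is stored largely in the lipid droplet.

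Log2 ratios below are of FPKM + 1, Nutlin-3a over DMSO, and a gene was counted as higher or lower at a 2-fold or larger difference on that scale. Ratios of weakly expressed genes are understated by the added 1, so the plain fold of the FPKM is also given for many of them. Of the 30 genes, 1 was higher (3.33%), against 6.62% of all 10331 genes compared, and 1 was lower (3.33%), against 6.14% of all genes. At a looser limit of 1.5-fold, 4 of 30 were higher (13.3%), against 17.8% of all genes, and 2 were lower (6.67%), against 15.2%. These shares were under the background in both directions, so the members did not stand out by their number past either limit. The median log2 ratio of the 30 genes was -0.01, with quartiles of -0.25 and 0.34, and that of all genes was 0.07, with quartiles of -0.33 and 0.44. Of the 30 genes 15 lay above 0 and 15 below it, against a share above 0 of 54.8% over all genes.

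The upstream sequences show what many synthesis genes share that their selection did not use. RefSeq promoter windows on GRCm38.p6 were found for 25 of the 30 genes, and the 250 bases before each annotated start were searched on both strands. CCAAT, the binding motif of NF-Y, a partner of SREBP-2, was present upstream of 14 of 15 synthesis genes, with Acat2 as the exception. It was present upstream of 4 of 10 others, namely Srebf2, Insig1, Insig2 and Npc2. Among 17491 protein-coding genes 39.5% held it in at least 1 window, and among all 32851 windows 33.8% did. The sterol regulatory element, searched as TCACNCCAC, was found upstream of Hmgcs1 alone among the 25 genes, and in 1.05% of all windows. Its shortened form TCACCCCA, which overlaps it, was found upstream of Hmgcs1, Srebf2 and Apoe, and in 1.34% of all windows. No window of the 25 genes held a full p53 response element, which occurred in 0.0639% of all windows. These matches are letters in a window and not measured binding.

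The windows of Hmgcs1, Srebf2 and Apoe are printed because they alone among the 25 held TCACCCCA, and because Srebf2 encodes the factor and Apoe was the gene past the upper limit. Each runs 5′ to 3′ in the direction of its gene and ends 1 base before an annotated start. Capitals mark TCACCCCA or TCACNCCAC and CCAAT, which reads ATTGG where it lies on the reverse strand. They lie at chr13:119690101-119690350 on the plus strand for Hmgcs1, chr15:82147019-82147268 on the plus strand for Srebf2, and chr7:19699189-19699438 on the minus strand for Apoe.
Hmgcs1: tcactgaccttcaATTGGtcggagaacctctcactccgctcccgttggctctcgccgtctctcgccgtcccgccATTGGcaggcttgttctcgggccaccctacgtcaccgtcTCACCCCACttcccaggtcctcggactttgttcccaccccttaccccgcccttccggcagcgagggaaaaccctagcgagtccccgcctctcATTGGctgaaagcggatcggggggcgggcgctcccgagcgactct
Srebf2: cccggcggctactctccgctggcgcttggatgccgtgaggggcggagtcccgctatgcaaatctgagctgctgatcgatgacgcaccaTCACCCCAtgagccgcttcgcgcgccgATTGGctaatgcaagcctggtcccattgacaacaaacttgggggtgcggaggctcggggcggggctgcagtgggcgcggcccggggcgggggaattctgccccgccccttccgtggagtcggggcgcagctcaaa
Apoe: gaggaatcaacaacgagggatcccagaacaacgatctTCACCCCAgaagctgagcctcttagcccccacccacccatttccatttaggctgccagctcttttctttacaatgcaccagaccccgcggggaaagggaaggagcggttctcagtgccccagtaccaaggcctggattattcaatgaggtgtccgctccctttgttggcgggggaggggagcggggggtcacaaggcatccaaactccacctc
Hmgcs1 held 3 CCAAT motifs on the reverse strand and the sterol element 137 to 129 bases before the start. Srebf2 held TCACCCCA 162 to 155 bases before the start and 1 CCAAT motif, 135 to 131 bases before it. Apoe held TCACCCCA 213 to 206 bases before the start and no CCAAT motif. The reference Apoe gene reaches 19701310, so its window lies inside that gene, just before the start of the listed interval.

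**Figure D1:**
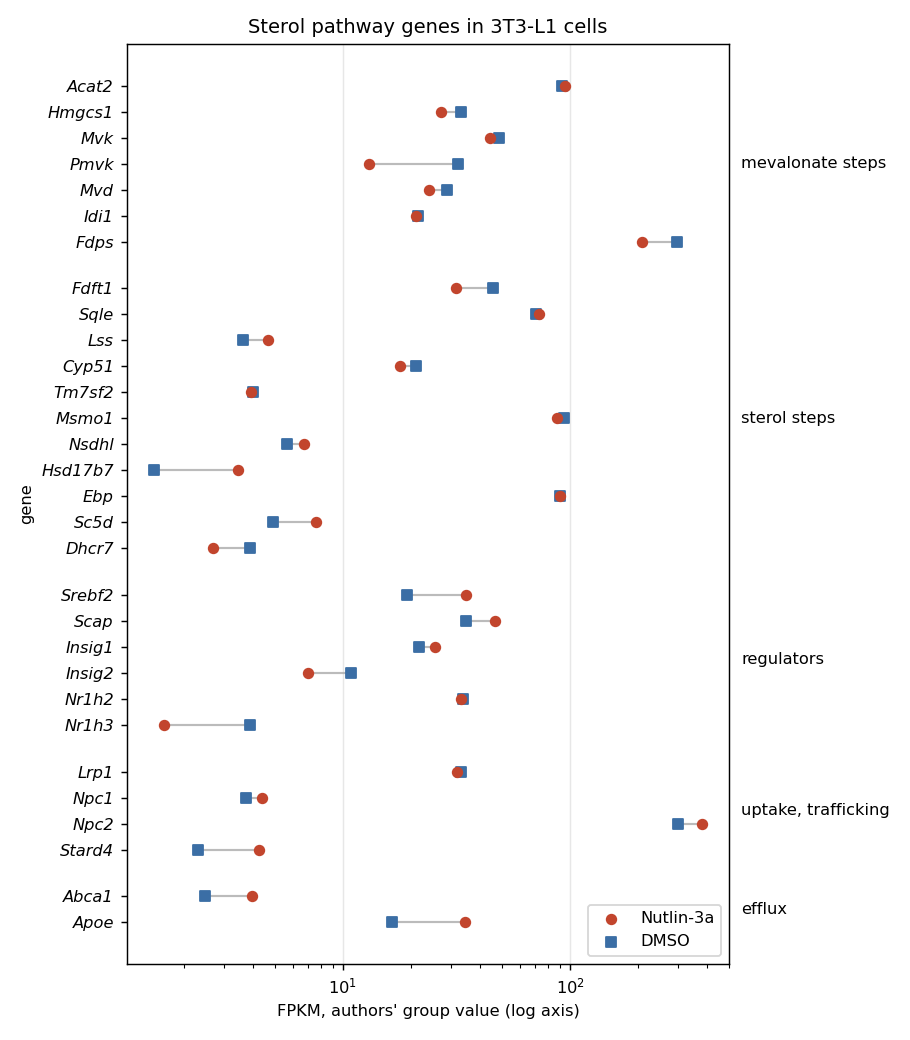
FPKM of each of the 30 genes on a log axis, with a circle for Nutlin-3a and a square for DMSO, grouped by role in the pathway. Npc2 and Fdps have the highest levels in both groups, and most pairs of points lie close together, with wider gaps for Pmvk, Hsd17b7, Srebf2, Nr1h3, Stard4 and Apoe.

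The early steps of synthesis, from acetyl-CoA to farnesyl diphosphate, lay slightly lower in Nutlin-3a. Of 7 genes, 6 had a ratio below 0 and 1 above it (14.3%), against a share above 0 of 54.8% over all genes. Their median was -0.26, against 0.07 for all genes. Of the 7, 1 was at least 2-fold lower (14.3%), against 6.14% of all genes. Pmvk, phosphomevalonate kinase, was that gene, with 12.97 FPKM in Nutlin-3a, against 32.2 FPKM in DMSO, a 2.48-fold lower value and a log2 ratio of -1.25. Its ratio lay at percentile 3.39 of all genes compared, and the table lists it on the plus strand of chromosome 3 from 89459118 to 89469009 (mm10). The listed Pmvk transcript that carries this value is classed as a variant structure (class code j) rather than an exact match to the annotation. The same class carries all of the Dhcr7 and Stard4 values below and 99.7% of the Fdps sum in Nutlin-3a. Pmvk stood apart from its neighbours in the chain. Mvk, mevalonate kinase, which acts just before it, had 44.2 against 48.5 FPKM, a log2 ratio of -0.13. Mvd, mevalonate diphosphate decarboxylase, which acts just after it, had 23.9 against 28.7 FPKM, a log2 ratio of -0.26. Hmgcs1, the HMG-CoA synthase of the cytosol, had 27.0 against 33.0 FPKM, a log2 ratio of -0.28. All 3 lay within the 2-fold limit. After a correction for GC content Mvk was at 0.12, Mvd at -0.004 and Hmgcs1 at -0.43.

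At the ends of this segment the picture differed by gene. Fdps, farnesyl diphosphate synthase, was the most abundant synthesis gene in both groups, with 207 FPKM in Nutlin-3a, against 295 FPKM in DMSO, a log2 ratio of -0.51. Acat2, the cytosolic acetoacetyl-CoA thiolase that starts the chain, had 94.6 against 92.5 FPKM. Idi1, the isomerase of the 5-carbon units, had 20.9 against 21.5 FPKM. Acat2 and Idi1 had nearly equal levels in both groups, and Fdps was lower but inside the limit. Acat2 has the near copy Acat3 and overlaps a pseudogene by 634 bases, so its value is uncertain.

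The later steps, from farnesyl diphosphate to cholesterol, included 11 genes with a median ratio of 0.00 (log2). Of these, 6 lay above 0 (54.5%), against 54.8% of all genes, and 5 lay below it. None of the 11 passed the 2-fold limit, against 6.62% of all genes higher and 6.14% lower. Fdft1, squalene synthase, which commits farnesyl diphosphate to sterols, had the lowest ratio of these, with 31.5 FPKM in Nutlin-3a, against 45.7 FPKM in DMSO, a log2 ratio of -0.52. Sqle, squalene epoxidase, a rate-limiting enzyme, had 73.1 against 71.0 FPKM. Lss, lanosterol synthase, which closes the sterol rings, had 4.70 against 3.62 FPKM, a log2 ratio of 0.30 and a plain fold of 1.30. Thus 3 successive steps lay below, at and above equal levels. Fdft1 overlaps Ctsb, a cathepsin gene on the opposite strand, by 774 bases, and its listed interval also covers Ctsb. Ctsb was listed separately at 118 against 124 FPKM, and whether the counting used strand is not given in the sources used here, so the Fdft1 value is uncertain.

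The enzymes that trim lanosterol differed more in level than in ratio. Ebp, the sterol isomerase, had 90.7 against 90.6 FPKM, a log2 ratio of 0.00. Msmo1, the C4 methyl oxidase, had 87.5 against 93.7 FPKM, a log2 ratio of -0.10. Cyp51, the lanosterol demethylase, had 17.9 against 20.96 FPKM, a log2 ratio of -0.22. These 3 were the most abundant of the trimming enzymes in both groups. Nsdhl, which works with Msmo1 in removing the C4 methyl groups, had 6.72 against 5.66 FPKM, and Tm7sf2, a sterol reductase, had 3.94 against 3.997 FPKM. Tm7sf2 overlaps Vps51 on the same strand by 9 bases and shares its gene model in the table, so its value is uncertain. Dhcr7, which acts last in one branch of the pathway, had 2.68 against 3.89 FPKM, a 1.45-fold lower value and a log2 ratio of -0.41.

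A pair of weakly expressed trimming enzymes lay above the rest. Hsd17b7, a 3-ketosteroid reductase of this pathway, had 3.44 FPKM in Nutlin-3a, against 1.47 FPKM in DMSO. Its plain fold was 2.34, while its log2 ratio of 0.85 stayed within the limit. Sc5d, the desaturase that acts before Dhcr7, had 7.61 against 4.93 FPKM, a 1.54-fold higher value and a log2 ratio of 0.54. Hsd17b7 was the highest of the 18 synthesis genes by ratio and the lowest of them in DMSO by level.

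**Figure D2:**
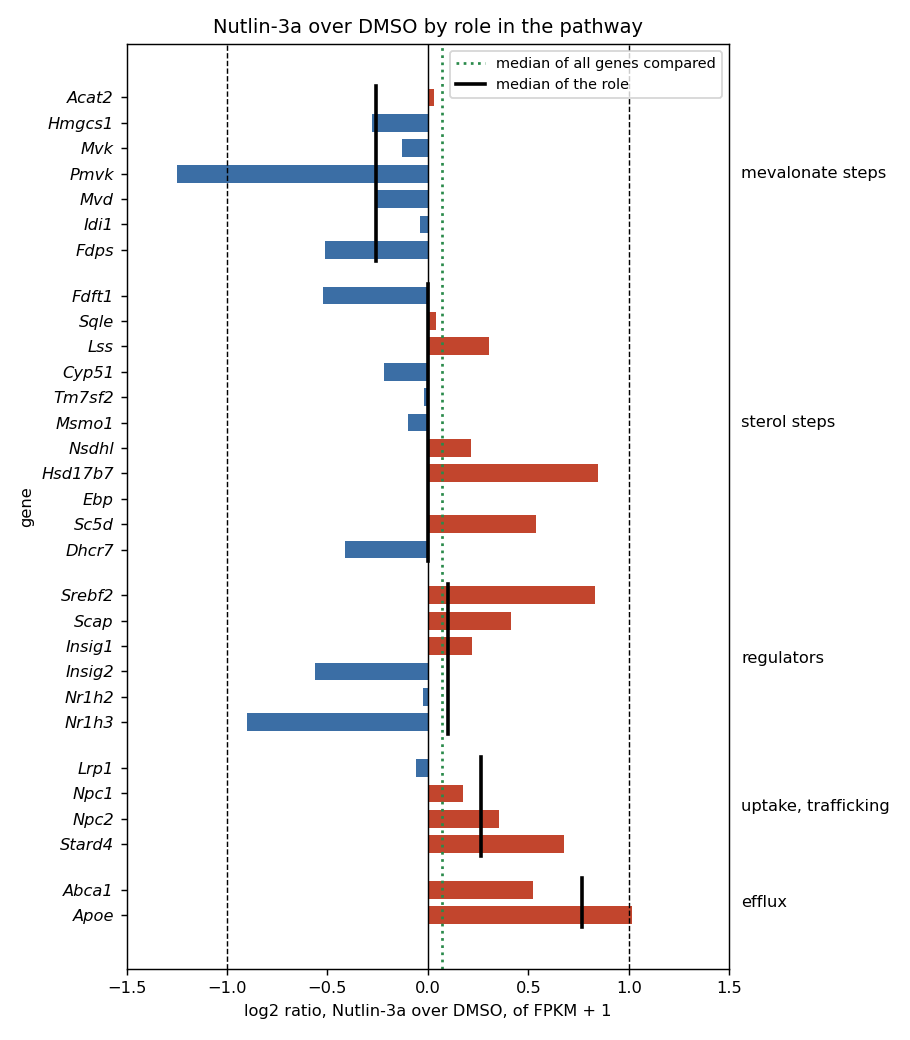
Log2 ratio of FPKM + 1, Nutlin-3a over DMSO, for the 30 genes by role, with red bars above 0 and blue bars below it. Dashed lines mark the 2-fold limit, thick black lines the median of each role and the dotted green line the median of all genes compared, and Pmvk and Apoe alone reach past the limit.

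The genes that sense sterols and control SREBP-2 went both ways. Srebf2, the gene of SREBP-2, had 35.0 FPKM in Nutlin-3a, against 19.2 FPKM in DMSO, a 1.82-fold higher value and a log2 ratio of 0.83, within the limit. Scap, its escort, had 46.9 against 35.0 FPKM, a log2 ratio of 0.41. Insig1, the retention protein that is itself a known SREBP target, had 25.3 against 21.6 FPKM, a log2 ratio of 0.22. Insig2, its relative, had 7.02 against 10.8 FPKM, a log2 ratio of -0.56. The INSIG paralogs thus lay on opposite sides of 0, both inside the limit, with Insig1 the more abundant in both groups. Srebf2 stood at percentile 90.2 of all genes by ratio, whereas the 18 synthesis enzymes, whose genes its protein is known to drive, ran from percentile 3.39 (Pmvk) to percentile 90.6 (Hsd17b7), with 11 of them below 0. Srebf2 and Scap are GC-rich genes (58.0% and 56.7% of transcript bases). Across all genes GC-rich genes had the lower ratios, as given in the paragraph on composition. After a correction for GC content the log2 ratios of Srebf2 and Scap were 1.07 and 0.61.

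The LXR genes differed in level and in ratio. Nr1h2, the broadly expressed LXR-beta gene, had 33.2 against 33.8 FPKM, a log2 ratio of -0.02. Nr1h3, the LXR-alpha gene, had 1.63 FPKM in Nutlin-3a, against 3.91 FPKM in DMSO. Its plain fold was 2.40 lower, and its log2 ratio of -0.90, at percentile 7.58, stayed within the limit. Nr1h3 had the lowest level in Nutlin-3a of the 30 genes. The reference Nr1h3 gene overlaps Acp2, a lysosomal acid phosphatase gene on the opposite strand, by 18 bases. That reference gene ends at 91202829, while the listed Nr1h3 interval ends at 91195116 and is shared with no other listed gene. Acp2 had 3.21 against 6.76 FPKM, a log2 ratio of -0.88. The part of shared reads in the Nr1h3 value was not tested.

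Genes of uptake and of cholesterol movement inside the cell lay above 0 in 3 of 4 cases, with a median of 0.26 on the log2 scale and none past the limit. Npc2, the soluble lysosomal carrier that hands cholesterol to NPC1, was the most abundant of the 30 genes, with 380.3 FPKM in Nutlin-3a, against 298 FPKM in DMSO, a log2 ratio of 0.35. Npc1, the membrane protein that exports it from the lysosome, had 4.38 against 3.76 FPKM, a log2 ratio of 0.18. Stard4, a sterol carrier of the cytosol, had 4.26 against 2.29 FPKM, a 1.86-fold higher value and a log2 ratio of 0.68. Lrp1, a large endocytic receptor of lipoproteins, had 31.6 against 33.0 FPKM, a log2 ratio of -0.06. Stard4 passed the looser 1.5-fold limit and the other 3 did not. Npc1 overlaps a protein-coding gene on the opposite strand by 8982 bases, so its value is uncertain.

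Both efflux genes had higher values in Nutlin-3a, and Apoe alone among the 30 genes was at least 2-fold higher on the FPKM + 1 scale. By plain fold Hsd17b7, at 2.34, was higher still. Apoe, the gene of apolipoprotein E, which accepts cholesterol leaving the cell, had 34.3 FPKM in Nutlin-3a, against 16.5 FPKM in DMSO, a 2.08-fold higher value and a log2 ratio of 1.01. Abca1, the transporter that moves cholesterol to the cell surface and onto apolipoproteins, had 3.99 against 2.48 FPKM, a 1.61-fold higher value and a log2 ratio of 0.52. Most other genes of efflux and LXR action that were compared did not share this direction. A wider list of sterol genes held 10, of which 7 passed the minimum mean of 1 FPKM. Of the 7, 1 lay above 0 (14.3%), against 54.8% of all genes. The genes below the minimum were under 1 FPKM in both groups, went both ways and were not counted. The median log2 ratio of the 7 was -0.29, against 0.07 for all genes. Apoe lay just past the limit, at percentile 93.6 of all genes compared, and was inside it, at 0.93, when the groups were scaled to a median ratio of 1. Apoe is also a gene of macrophages. Of 3 macrophage markers with a value, Ptprc had 0.0618 FPKM in Nutlin-3a and a listed 0 in DMSO, Csf1r at 0.801 against 0.549 FPKM and Cd68, which other cells also express, at 6.52 against 2.91 FPKM. The summed level of the 3 was 7.38 against 3.46 FPKM, most of it from Cd68 in both groups. The part of macrophages in the Apoe value was not tested. In RNA of a whole culture, fewer cells of a type and less RNA per cell cannot be told apart.

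**Figure D3:**
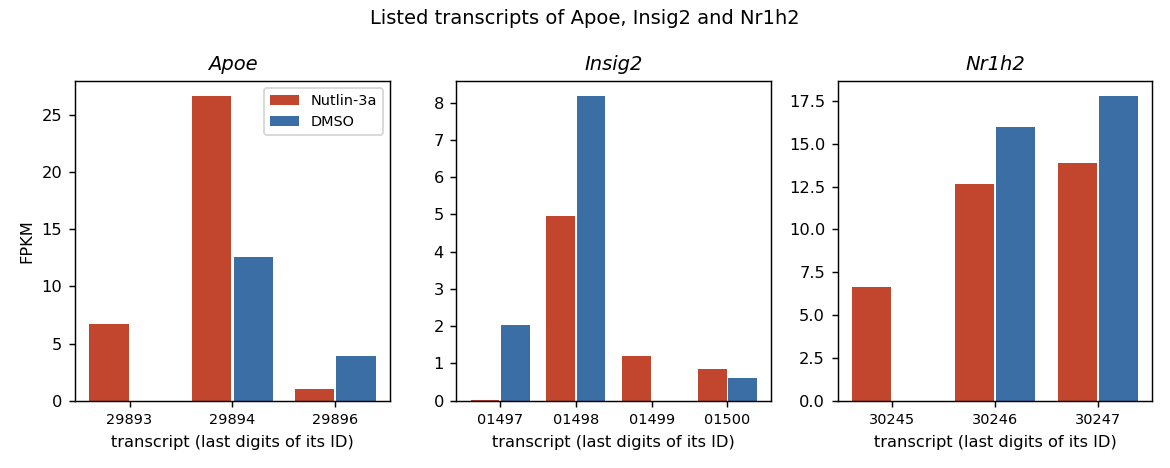
FPKM of each listed transcript of Apoe, Insig2 and Nr1h2 that reached 0.5 FPKM in at least 1 group, with red bars for Nutlin-3a left of blue bars for DMSO. Each gene has a transcript of 1 to 7 FPKM in Nutlin-3a that stands near 0 or at 0 in DMSO, and each also has at least 1 that is lower in Nutlin-3a.

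The sums hide opposite values of single transcripts in 3 genes. A total of 9 of the 30 genes had several listed transcripts, and in 5 of them at least 2 transcripts reached 0.5 FPKM. The main Apoe transcript (TCONS_00029894) had 26.6 against 12.5 FPKM, a log2 ratio of 1.03, close to that of the gene. A further one (TCONS_00029893) had 6.70 FPKM in Nutlin-3a, against 0.000346 FPKM in DMSO, and another (TCONS_00029896) had 0.983 against 3.95 FPKM. The main transcript held 77.6% of the Apoe sum in Nutlin-3a and 76.0% in DMSO, so the other 2 together held a like share in both groups while their order was reversed.

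Nr1h2 showed equal sums from unequal parts. Its 2 main transcripts had 13.9 against 17.8 FPKM and 12.7 against 16.0 FPKM, log2 ratios of -0.34 and -0.31. Another one (TCONS_00030245) had 6.65 FPKM in Nutlin-3a and a listed 0 in DMSO, and made up 20.0% of the sum in Nutlin-3a. No fold is given, since a listed 0 may stand for an estimate that failed. In Insig2 the main transcript had 4.95 against 8.17 FPKM, another had 0.0117 against 2.04 FPKM, and another had 1.201 against 0.00110 FPKM. By contrast, both transcripts of Mvk had like ratios, with log2 ratios of -0.14 and -0.06, and 99.7% of the Fdps sum in Nutlin-3a and 99.0% in DMSO came from 1 transcript. How reads were shared among transcripts of a gene is not given in the sources used here.

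Set against each other, synthesis lay lower than the regulators, uptake and efflux genes. The 18 synthesis genes had a median log2 ratio of -0.07, with 7 above 0 (38.9%), and the 12 others had one of 0.29, with 8 above 0 (66.7%), against 54.8% of all genes. The difference of the medians, synthesis minus the others, was -0.36. Summed FPKM of synthesis was 759.8 in Nutlin-3a and 897 in DMSO, a ratio of 0.847, and of the others 608 in Nutlin-3a and 480.0 in DMSO, a ratio of 1.27. Without Fdps and Npc2, the most abundant gene of each set, these ratios were 0.919 and 1.25. The medians kept their signs under each of 9 other ways of processing, with differences between -0.40 and -0.34. These ways rework the same 2 group values of the same genes, and a scaling shifts both sets nearly alike. They therefore do not test the difference. Within synthesis, the mevalonate steps summed to 430.1 against 551 FPKM and the sterol steps to 329.7 against 346 FPKM. These are descriptions of 2 group values, and the difference was not tested against replicates.

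The contrast depended on which genes stood for each set. A wider list of 56 other genes of sterol metabolism had values for 54, of which 45 passed the minimum and 9 did not. Its 4 further synthesis genes all lay above 0, against 54.8% of all genes, with a median log2 ratio of 0.30 and none past the limit. Among them were Ggps1, which makes geranylgeranyl diphosphate, and Lbr, a sterol reductase of the nuclear envelope. Ggps1 had 1.77 against 1.28 FPKM and Lbr had 8.17 against 6.07 FPKM. With these included, the median over 22 synthesis genes was -0.01. With the other 41 genes of the wider list added to the 12, the median over 53 genes was 0.01, so the difference between the sets was -0.02. Of these, 11 of 22 and 28 of 53 lay above 0.

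**Figure D4:**
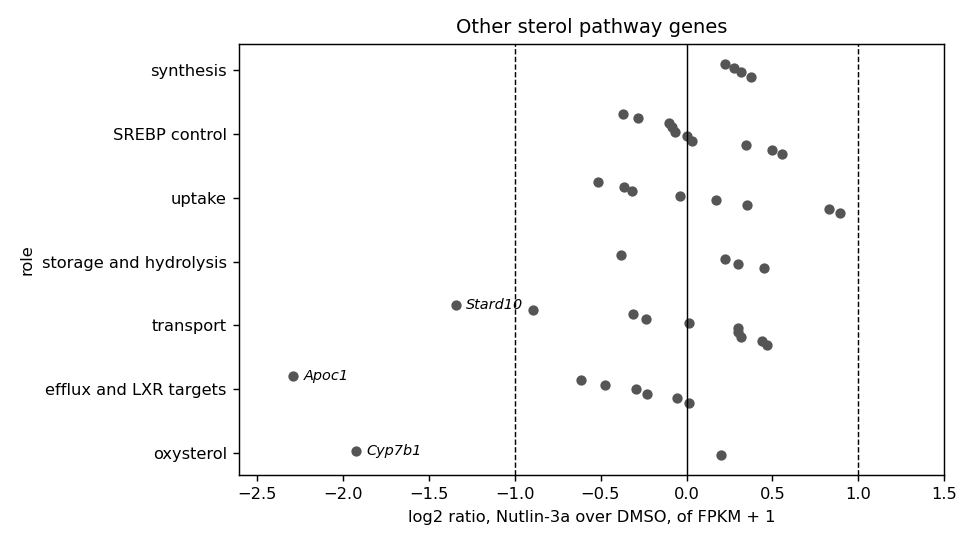
Log2 ratio of FPKM + 1, Nutlin-3a over DMSO, of the 45 other sterol pathway genes compared, 1 point a gene, by role, with dashed lines at the 2-fold limit. Stard10, Apoc1 and Cyp7b1 lie past the lower line and no gene lies past the upper one.

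Of the 45 genes of the wider list, 3 were at least 2-fold lower in Nutlin-3a (6.67%, against 6.14% of all genes). None was at least 2-fold higher, against 6.62% of all genes. Cyp7b1, the oxysterol 7-alpha-hydroxylase, had 4.68 FPKM in Nutlin-3a, against 20.5 FPKM in DMSO, a 4.38-fold lower value and a log2 ratio of -1.92. Apoc1, the gene of apolipoprotein C-I, had 1.98 against 13.5 FPKM, a 6.84-fold lower value and a log2 ratio of -2.29. Stard10, a lipid transfer protein gene, had 0.896 against 3.802 FPKM, a 4.25-fold lower value and a log2 ratio of -1.34. The list's median of 0.01 was near that of all genes. Apoc1 is the neighbour of Apoe on chromosome 7, with 3585 bases between the listed intervals, 19689480 to 19692659 for Apoc1 and 19696244 to 19699188 for Apoe (mm10). Both are transcribed from the minus strand, and the neighbours lay past the limit in opposite directions.

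Base composition moved with the ratios of all genes. In 4 classes of equal size by GC content of their transcripts, the median log2 ratio of all genes was 0.22 in the lowest class and -0.16 in the highest. The highest class held 10 of the 30 genes, with a median of -0.04, and among them were Apoe, Srebf2, Scap, Pmvk and Nr1h3. After a correction for GC content the log2 ratio of Srebf2 was 1.07, past the limit, that of Apoe was 1.27, that of Nr1h3 was -0.69 and that of Pmvk was -1.06. Pmvk was lower past the limit as reported and under each of the 9 other ways of processing.

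**Figure D5:**
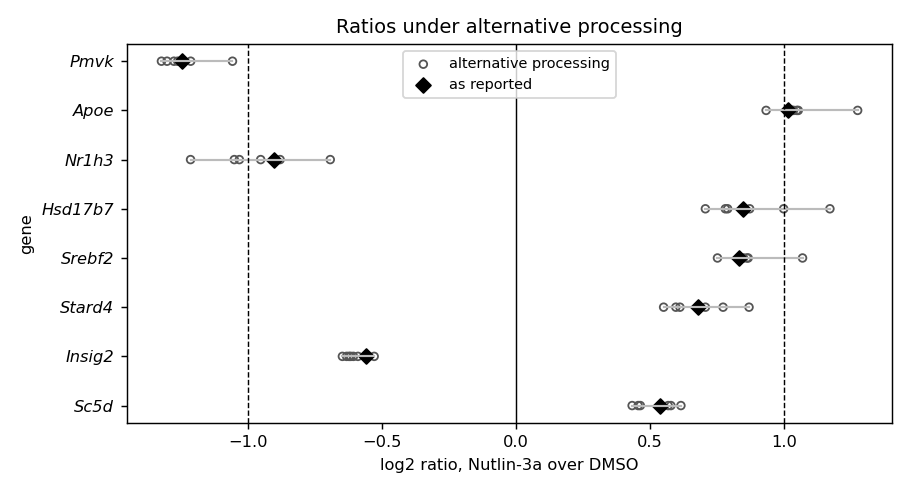
Log2 ratios of the 8 genes with the largest absolute values, as reported (diamonds) and under the alternative settings (open circles), with dashed lines at the 2-fold limit. Pmvk stays past the lower line in every setting drawn, whereas Apoe, Nr1h3, Hsd17b7 and Srebf2 have values on both sides of a line.

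The preadipocyte label was checked against cell type markers. All 7 preadipocyte and fibroblast markers were at or above 9.14 FPKM in both groups, with a sum of 1106 FPKM in Nutlin-3a, against 1984 FPKM in DMSO. They went both ways: Dlk1 had 623 against 513 FPKM, whereas the other 6 had lower values in Nutlin-3a, with log2 ratios from -1.89 (Ly6a) to -0.74 (Pdgfrb). Of 4 mature adipocyte markers with a value, Fabp4 alone passed 1 FPKM in both groups, at 8.65 FPKM in Nutlin-3a, against 42.0 FPKM in DMSO. The other 3 were below 1 FPKM and had the higher value in Nutlin-3a, with Adipoq at 0.840 against 0.0409 FPKM and Plin1 and Lep listed at 0 in DMSO. The sum of the 4 was 9.60 against 42.0 FPKM. Epithelial, endothelial and hepatocyte markers summed to at most 2.02 FPKM for each cell type in either group. Pecam1, an endothelial marker, had 1.57 FPKM in Nutlin-3a, against 0.0260 FPKM in DMSO. Alb, the albumin gene, had 1.504 FPKM in Nutlin-3a and was listed at 0 in DMSO. Whether these shifts have a part in any ratio above was not tested.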

How the data were processed

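TRIzol was used for RNA extraction from the 3T3-L1 cultures and Illumina's standard protocols for the libraries, per the labels' protocols. Alignment tool and build were TopHat2 2.0.11 and mm10, per the submitters' processing notes. Which program quantified transcripts, on which annotation, and how replicates were combined is not given in the sources used here. Columns of deposited FPKM headed NUT and DSM were read as Nutlin-3a and as DMSO, the only other group. A second pair of deposited columns holds log2 of the same FPKM (within 0.00714) and was not used. Another 4294 lines were empty.

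FPKM of 24746 transcripts was summed per symbol, and 10331 genes with a mean of at least 1 FPKM and a value above 0 in both groups were compared as log2(FPKM + 1). A limma fit was planned but could not be run without values per library, so a 2-fold limit took its place. The script for the calls was run on simulated data with large planted changes and an assumed noise. That run checked the script alone, and the calls in these data could not be tested without replicate values. GC content came from GENCODE M21, found for 9935 of these genes and all 30 members, and a lowess fit (span 0.3, statsmodels 0.14.6, Python 3.11.15, pandas 2.3.3) gave the correction. Figures were drawn with matplotlib 3.10.9. Promoter windows came from RefSeq on GRCm38.p6. Listed starts are printed counted from 1.

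All 30 members are named; genes of the wider list are named past the limit, Ggps1 and Lbr as examples chosen after their values were seen, and some genes of it are not reported here. Members and lists were chosen with earlier results of these data known. Alternatives were other pseudocounts, filters, scalings, limits, a GC correction and another way to combine transcripts.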

Additional observations from a re-analysis of the deposited data

How the results depend on the processing

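No paired analysis was possible because the table has 1 value per group and none per library, and leaving out a replicate was not possible for the same reason. The count of 1 member at least 2-fold higher became 2 with a pseudocount of 0.1 (Hsd17b7 added) and after GC correction (Srebf2 added), 0 after median scaling, and 4 at a 1.5-fold limit. The count of 1 member lower became 2 with a pseudocount of 0.1 or 0.5, after quantile normalization and at a 1.5-fold limit, with Nr1h3 added each time. Over all genes, 684 were higher and 634 lower; 391 were higher and 466 lower with a mean of at least 5 FPKM, and 1839 higher and 1566 lower at 1.5-fold. GC correction gave 719 higher and 486 lower, whereas median scaling gave 578 and 729 and quantile normalization 598 and 714, with more lower than higher calls. With the wider list added, an alternative chosen after seeing the data, the medians of synthesis and of the other genes were -0.01 and 0.013, and their difference moved to -0.021. Across the 9 settings that give a median and add no genes to the 30, the synthesis median ran from -0.15 to -0.03. That of the others ran from 0.21 to 0.32. With a minimum mean of 5 FPKM, which is among these settings, 22 of the 30 members were compared. Of 262 single values under alternatives, 256 stayed on the side of the limit reported. Part of these could not move: filters on the mean leave the ratio of a gene unchanged. The choice of 1 transcript cannot alter the 21 members with a single listed transcript. Signs of 7 members with ratios near 0 changed in 1 or 2 settings (Acat2, Ebp, Lrp1, Mvk, Nr1h2, Sqle and Tm7sf2). Depth limits cannot be given without counts.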

Other observations

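Around Apoe, within 50 kb, the listed genes with at least 1 FPKM in both groups did not share a direction. Tomm40, a mitochondrial import gene 2125 bases from the listed Apoe interval, had 51.9 FPKM in Nutlin-3a, against 39.7 FPKM in DMSO, a log2 ratio of 0.38. The reference Apoe gene reaches further, to 19701310, and the listed Tomm40 interval starts at 19701313. Clptm1 had 24.5 against 15.1 FPKM, a log2 ratio of 0.67, and Pvrl2, which encodes the adhesion protein nectin-2, had 14.6 against 42.3 FPKM, a log2 ratio of -1.47. Apoc1, between Clptm1 and Apoe, had a log2 ratio of -2.29. These neighbours were chosen after the values of Apoe and Apoc1 were seen, and the differences could not be set against replicates, since values per library were not analysed here.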
